A study of Mus musculus with 7 samples.

Results

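The genes described here are the Notch receptors Notch1, Notch2, Notch3 and Notch4, the ligands Jag1, Jag2 and Dll1, the nuclear partner Rbpj and the pathway genes Hes1 and Dtx4, measured in donor myeloid cells, host myeloid cells and keratinocytes of mouse epidermis. They were picked by symbol, which gave 10 of the 31907 genes listed in any of the 3 expression tables. The keratinocyte and host tables list all 10, and the donor table lists 9, without Dll1.

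Notch receptors are activated by ligands on neighbouring cells, after which the cleaved intracellular domain enters the nucleus and acts with the DNA-binding protein RBPJ. Jagged and Delta-like proteins are the transmembrane ligands, HES1 is a repressor whose gene is a classical Notch target, and Deltex proteins are ubiquitin ligases tied to the pathway. In epidermis, Notch signalling is known for its part in keratinocyte differentiation, and NOTCH2 is known for its part in the development of several dendritic cell types.

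Single-cell RNA-seq was performed on cells sorted from the epidermis of male CD45.2 C57BL/6 hosts 3 weeks after lethal irradiation and transplantation of female CD45.1 C57BL/6 bone marrow (BMT), with each library drawn from pooled mice. Donor CD11b+MHCII+ cells came as 3 libraries labelled BMT (2572, 8382 and 226 cells) and 1 labelled BMT plus T cells (719 cells, written BMT + T cells). Host keratinocytes, sorted as CD45neg, came as 1 library under each label (2836 and 2590 cells), and host CD11b+MHCII+ cells as 1 library (781 cells). By the design text all hosts also received CD4 cells and CD8 Matahari (Mh) T cells, the latter specific for a male antigen, whereas the sample labels give T cells for 1 donor and 1 keratinocyte library only, so groups are named here by label.

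Levels are unique molecular identifiers (UMIs) of a gene per 10000 UMIs of the cell (CP10K), averaged over the cells of a cluster in a library, and were compared between clusters and libraries, not between genes. Differences are log2 fold changes on the log2(CP10K + 0.1) scale, which understates the change of low genes. Cluster names are the authors' own: classical monocytes (Mono), interferon-stimulated (ISG), Hmox1+ and S100a+ monocytes, Mrc1+ macrophages, a cluster named MC, and resident, cycling and migrating monocyte-derived Langerhans cells (mLCs). Clusters were built from the same expression values, so tests between them describe the annotation. Median depth per cell was 7021.5 to 13387 UMIs in the donor libraries, 8834 and 8895.5 in the keratinocyte libraries and 4376 in the host library. Langerhans cell markers (Cd207, Epcam and Mfge8, 3 of 3 detected) summed to 59.9 to 85.6 CP10K in resident mLCs of the 4 libraries, against 0.416 to 1.55 in Mono, where the monocyte markers Plac8, Ly6c2 and Lyz2 summed to 86.8 to 184.

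The sequences around the start sites of the ligands Jag1 and Jag2 and the receptor Notch2, whose levels are compared in most detail, are shown to place these genes on the genome. Each window runs from 250 bases before to 50 bases after the start in RefSeq (GRCm38.p6), 5′ to 3′ on the gene's strand, and 8 of the 10 genes matched the promoter table. By position, Jag1 lies at chr2:137081451-137116520, Jag2 at chr12:112907803-112929812 and Notch2 at chr3:98013538-98150367. Capitals mark matches on either strand to the GC box (GGGCGG), the RBPJ core (TGGGAA), AP-1 (TGANTCA) or the TATA box (TATAAA), of which only GC boxes overlap one another here. The Jag1 window is chr2:137116471-137116770 (minus strand), the Jag2 window chr12:112929446-112929745 (minus strand) and the Notch2 window chr3:98013288-98013587 (plus strand).
Jag1: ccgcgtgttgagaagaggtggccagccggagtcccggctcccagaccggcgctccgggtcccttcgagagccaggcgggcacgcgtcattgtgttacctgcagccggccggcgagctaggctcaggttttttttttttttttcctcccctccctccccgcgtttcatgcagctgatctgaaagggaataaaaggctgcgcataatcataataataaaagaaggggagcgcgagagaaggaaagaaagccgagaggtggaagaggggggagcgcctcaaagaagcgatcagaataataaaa
Jag2: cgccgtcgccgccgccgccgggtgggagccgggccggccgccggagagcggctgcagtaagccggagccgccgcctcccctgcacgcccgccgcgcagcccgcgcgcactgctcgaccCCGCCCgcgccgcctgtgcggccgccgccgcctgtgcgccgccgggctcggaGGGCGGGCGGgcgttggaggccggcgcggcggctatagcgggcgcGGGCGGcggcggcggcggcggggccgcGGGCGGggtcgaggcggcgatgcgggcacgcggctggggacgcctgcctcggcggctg
Notch2: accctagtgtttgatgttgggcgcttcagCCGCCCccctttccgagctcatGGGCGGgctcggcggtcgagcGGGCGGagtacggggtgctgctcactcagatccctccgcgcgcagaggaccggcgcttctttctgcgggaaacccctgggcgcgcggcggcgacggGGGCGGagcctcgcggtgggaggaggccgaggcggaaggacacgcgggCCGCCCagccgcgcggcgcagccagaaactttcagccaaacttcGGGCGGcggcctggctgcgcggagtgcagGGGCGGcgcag

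The Jag2 window held 5 matches to the GC box and the Notch2 window 7, and the Jag1 window held none. A GC box was found in 35.7% of all 32851 promoter windows. GC content was 55.7% in the Jag1 window, 86.0% in the Jag2 window and 73.0% in the Notch2 window. The RBPJ core, present in 25.6% of all windows, was matched in windows of Rbpj alone among the 8 genes, AP-1 (7.81% of all windows) in 1 window each of Notch4 and Dll1, and the TATA box (13.6%) in none. These matches describe the letters in the windows and bear on no measured binding.

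To determine where Notch ligands were transcribed in the epidermis, the keratinocyte clusters were compared. Jag1 was highest in the Follicular cluster, while Jag2 and Dll1 were highest in Basal cells or in the cluster named KC_Five and lowest in Differentiated cells. Notch2, Notch3 and Hes1 were highest in Differentiated cells.

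Jag1 measured 1.55 CP10K in the BMT library and 1.79 in the BMT + T cells library in Follicular cells. In Basal cells it measured 0.881 and 0.894 CP10K, in Differentiated cells 0.720 and 0.623, in KC_Five 0.571 and 0.595 and in KC_Four 0.513 and 0.579. The libraries carry different labels and are the only repeats of each cluster. Both Follicular values lay above all 8 others, and KC_Five and KC_Four overlapped each other. The difference from Basal cells was 0.84 ± 0.105 (SE), adjusted p = 1.59e-05 (limma with Benjamini-Hochberg adjustment over all genes, 2 libraries), and from Differentiated cells 1.20 ± 0.105 (SE), adjusted p = 2.00e-07. From KC_Four it was 1.45 ± 0.105 (SE), adjusted p = 2.02e-08 and from KC_Five 1.37 ± 0.105 (SE), adjusted p = 4.93e-08.

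The Follicular cluster (278 and 259 cells) also carried the upper hair follicle markers Krt79, Krt17, Epcam and Itgb8, which summed to 56.4 and 54.2 CP10K, against at most 3.11 in any other cluster. The 4 fibroblast markers summed to 6.21 and 4.81 CP10K there, with Pdgfra at 0 in the BMT + T cells library, and the 3 melanocyte markers to 1.17 and 2.82, against at most 0.543 and 0.0595 in other clusters. Without the cells that held a UMI of either list, a subset chosen after the data were seen, 228 and 219 Follicular cells remained and Jag1 measured 1.60 and 1.80 CP10K. Jag1 was as high without those cells as with them.

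Within the Follicular cluster, cells with a Krt79 UMI (102 and 90 cells) had 1.07 and 1.34 CP10K of Jag1, and cells without one 1.82 and 2.03. For Hes1 the order was the opposite, with 1.19 and 1.15 against 0.505 and 0.559 CP10K. Cells without a Mgst1 UMI, a sebaceous gland gene, had the highest Jag1 of these subsets (2.23 and 2.37 CP10K). They were also shallower, with median depths of 5951 and 5692 UMIs against 9128 and 8926.5 in cells with a Mgst1 UMI. Median depth was 8932 and 8852.5 UMIs in cells with a Krt79 UMI and 7731 and 7516 in those without, and these values carry no test.

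Jag2 showed another pattern, with 1.47 CP10K in the BMT library and 1.80 in the BMT + T cells library in Basal cells. It measured 1.15 and 1.17 CP10K in KC_Four, 0.876 and 1.03 in Follicular cells, 0.853 and 0.841 in KC_Five and 0.111 and 0.211 in Differentiated cells. Basal cells lay above and Differentiated cells below every other cluster in both libraries, and the difference between Follicular cells and KC_Five did not pass (adjusted p = 0.348, limma). Follicular minus Basal was -0.71 ± 0.124 (SE), adjusted p = 3.94e-04, and Follicular minus Differentiated 2.04 ± 0.124 (SE), adjusted p = 3.11e-09 (limma). Differentiated minus Basal, a comparison added after the data were seen, was -2.75 ± 0.124 (SE), adjusted p = 2.18e-10.

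Dll1, the Delta-like ligand of the set, measured 0.327 and 0.25 CP10K in Basal cells and 0.375 and 0.283 in KC_Five. KC_Four had 0.166 and 0.186 CP10K, Follicular cells 0.124 and 0.141 and Differentiated cells 0.0353 and 0.0521. The order of Basal cells and KC_Five was the same in both libraries, with KC_Five higher, and their difference was not tested. Follicular cells were below Basal cells (log2 fold change -0.73 ± 0.153 (SE), adjusted p = 0.00194) and above Differentiated cells (0.70 ± 0.153 (SE), adjusted p = 0.00196, limma).

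**Figure D1:**
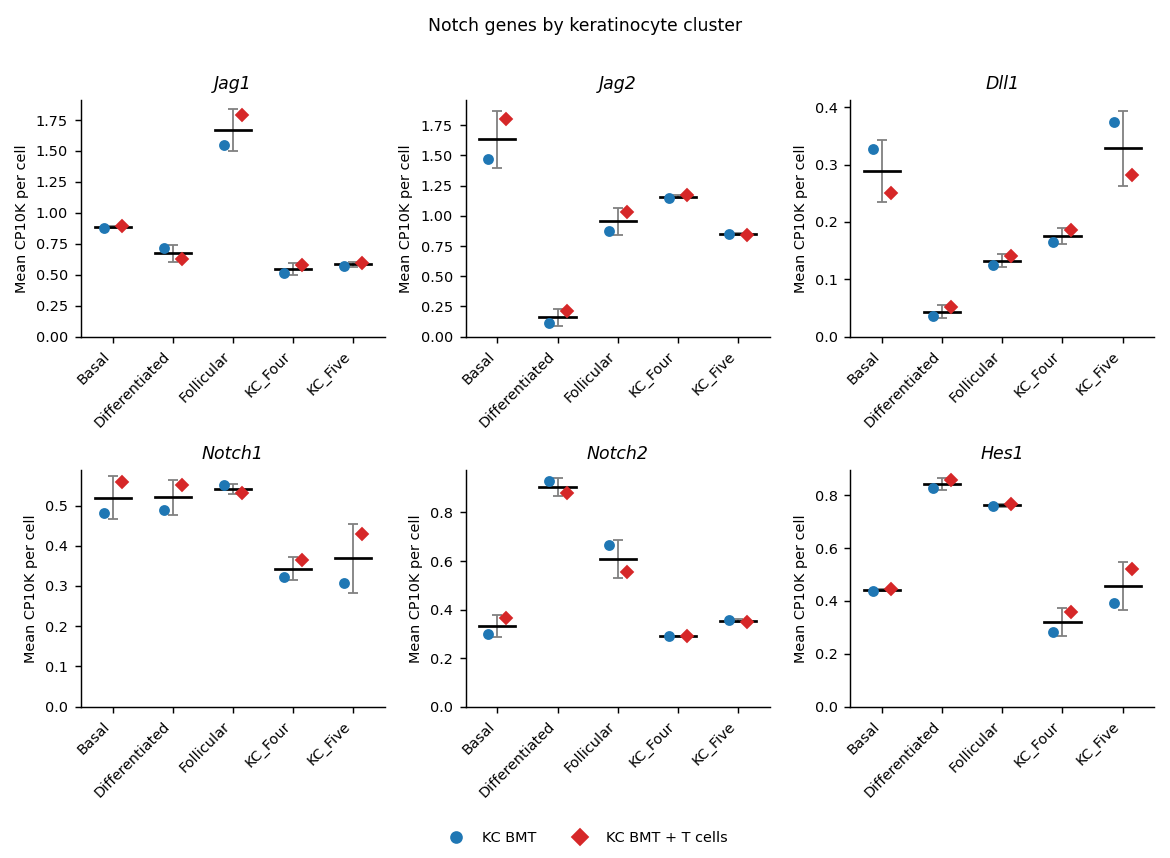
Mean CP10K per cell (vertical axes, linear) of Jag1, Jag2, Dll1, Notch1, Notch2 and Hes1 in the 5 keratinocyte clusters, with circles for the BMT library, diamonds for the BMT + T cells library, black lines for their mean and grey bars for the SD (n = 2). Jag1 peaks in Follicular cells at 1.55 and 1.79 CP10K, Jag2 falls to 0.111 and 0.211 in Differentiated cells, and Notch2 and Hes1 are highest in Differentiated cells.

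Among the receptors, Notch2 measured 0.931 CP10K in the BMT library and 0.879 in the BMT + T cells library in Differentiated cells. It measured 0.664 and 0.554 CP10K in Follicular cells and 0.300 and 0.364 in Basal cells, with KC_Five at 0.357 and 0.349 and KC_Four at 0.290 and 0.290. The order Differentiated, Follicular and then the remaining clusters held in both libraries. Differentiated minus Basal was 1.22 ± 0.121 (SE), adjusted p = 1.64e-06 (limma), and Follicular cells lay between them, at 0.72 against Basal (adjusted p = 3.05e-04) and -0.51 against Differentiated (adjusted p = 0.00343).

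By the mean over both libraries, Notch1 ran from 0.322 and 0.363 CP10K in KC_Four to 0.551 and 0.532 in Follicular cells, a difference of 0.54 ± 0.120 (SE), adjusted p = 0.00192 (limma). It did not pass the test between Follicular and Basal, Follicular and Differentiated, or Differentiated and Basal cells. Notch3 was highest in Differentiated cells (0.0798 and 0.0508 CP10K, from 40 and 21 UMIs), and no Notch3 UMI was counted in KC_Four. Notch4 gave 30 and 31 UMIs in all keratinocytes of the libraries and passed in no comparison.

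Hes1 measured 0.826 and 0.858 CP10K in Differentiated and 0.758 and 0.766 in Follicular cells, against 0.439 and 0.444 in Basal cells and 0.282 and 0.356 in KC_Four. Both clusters were above Basal cells, by 0.80 ± 0.116 (SE), adjusted p = 9.28e-05 and 0.67 ± 0.116 (SE), adjusted p = 3.89e-04 (limma), while Follicular minus Differentiated was -0.13 ± 0.116 (SE), adjusted p = 0.427 and did not pass. Dtx4 was highest in Follicular cells (0.0584 and 0.107 CP10K, from 14 and 24 UMIs) and passed against all 4 other clusters. Without a filter on low genes its calls against Basal cells, KC_Four and KC_Five were lost (limma adjusted p = 0.142, 0.0914 and 0.0835). Rbpj, at 0.0980 to 0.251 CP10K over all clusters and libraries, passed in no comparison.

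**Figure D2:**
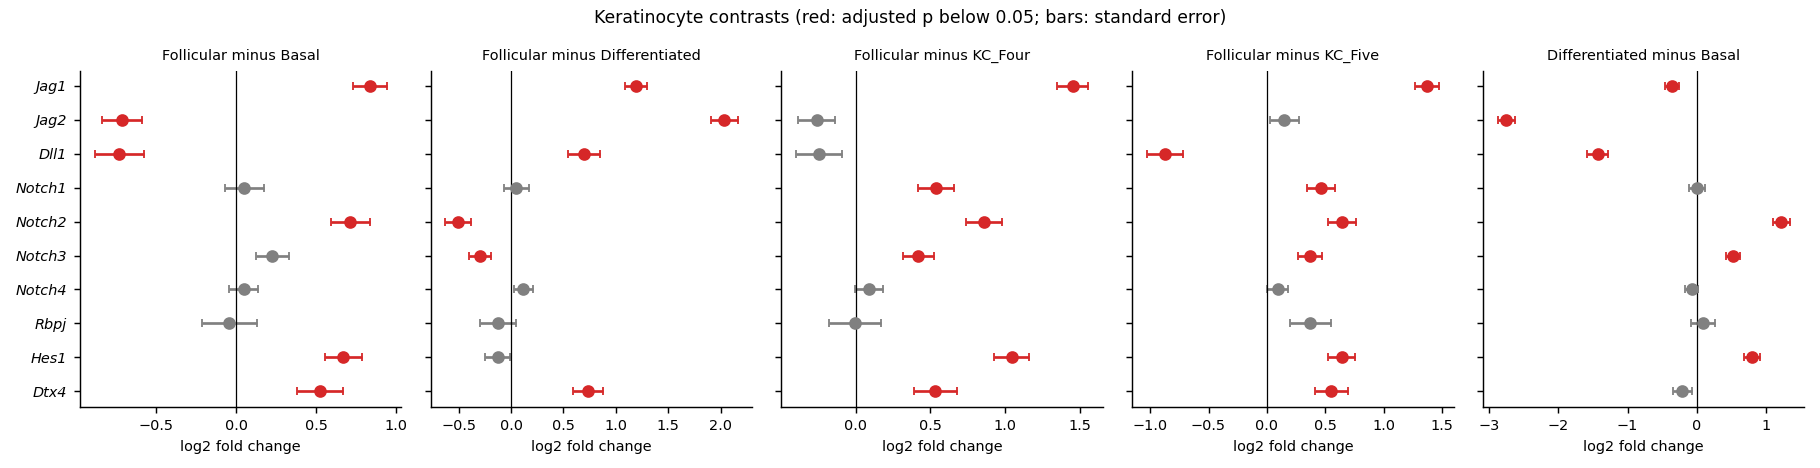
Log2 fold changes (horizontal axes, log2 of CP10K + 0.1) of the 10 genes in 5 keratinocyte comparisons, with bars for the standard error and red for an adjusted p below 0.05 in limma. Jag1 is to the right of 0 in all 4 comparisons of the Follicular cluster, while Jag2 changes side between Follicular minus Basal (-0.71) and Follicular minus Differentiated (2.04).

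All 10 genes passed the filter on low values in keratinocytes. In Follicular minus Basal, 6 of 10 were called (4 higher, 2 lower), where 23.0% of 11841 genes were called. The counts were 6 of 10 in Follicular minus Differentiated (37.9% of all genes), 6 of 10 in Follicular minus KC_Four (44.5%), 7 of 10 in Follicular minus KC_Five (43.1%) and 6 of 10 in Differentiated minus Basal (21.9%). The median log2 fold change of the 10 genes was 0.14, 0.08, 0.48 and 0.42 in the 4 Follicular comparisons, beside 0.06, 0.13, 0.13 and 0.11 over all genes. With the pseudocount of 0.1 only Jag2 passed an absolute log2 fold change of 2, between Differentiated and Follicular and between Differentiated and Basal cells.

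Other genes of the pathway came from a list of 48, of which 40 were tested in keratinocytes. In Follicular minus Basal, 5 were higher and 4 lower, with a median of 0.04 (9 of 40 called, where 23.0% of all genes were called). Dlk1, a non-canonical ligand, was among the higher genes, with no fold given because it was at 0 in both Basal libraries and in all but 1 Follicular cell of each library. Lfng, a glycosyltransferase that modifies Notch receptors, was higher by 0.65 and Nrarp, a feedback inhibitor, by 0.54, while Dlk2 fell by 0.78, Hes6 by 0.64 and Rfng by 0.57 on the log2 scale. In Follicular minus Differentiated, 14 were higher and 5 lower (19 of 40 called, where 37.9% of all genes were called). Dlk2 (2.49), Lfng (1.91) and Ccnd1 (1.72) led the higher genes, and Dtx2 (-0.90) and the sheddase Adam17 (-0.55) were among the lower ones.

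Against KC_Four, 18 of the 40 were higher and 3 lower, led by Ccnd1 (1.63), Myc (1.31) and Dlk1 (at 0 in KC_Four) above and Hdac1 (-0.72), Rfng (-0.47) and Dll3 (-0.41) below. Against KC_Five, 14 were higher and 4 lower, with Lfng (1.23), Dlk1 (at 0 in KC_Five) and the endocytic adaptor Numb (0.95) above and Aph1c (-0.55), Dtx2 (-0.53) and Hdac1 (-0.38) below. Differentiated minus Basal gave 3 higher, among them Nrarp (1.06) and Dtx2 (0.47), and 9 lower, with Dlk2 (-3.27), Ccnd1 (-1.32) and Lfng (-1.26) the lowest. The calls were 21 of 40 against KC_Four, 18 of 40 against KC_Five and 12 of 40 in Differentiated minus Basal. Over all genes 44.5%, 43.1% and 21.9% were called in these comparisons. The genes whose levels ran closest to Jag1 over the 10 cluster-by-library means were Tcf4, Cd63, Sik3, Mdm4 and Golim4 (Pearson r 0.985 to 0.979), and closest to Jag2 were Cdh13, Tns1, Agrn, Lamb3 and Gas1 (r 0.989 to 0.975). These r values are across means that share clusters and libraries and carry no test.

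The keratinocyte libraries of the 2 labels were set side by side without a test, since each label has 1 library. With equal weight for each cluster, the BMT + T cells library minus the BMT library was 0.05 for Jag1, 0.21 for Jag2 and -0.04 for Dll1 on the log2 scale. The ratio of all Jag2 UMIs (2761 and 3137) gave a log2 of 0.34 (95% interval 0.27 to 0.41), that of Jag1 (2195 and 2135) 0.12 (95% interval 0.03 to 0.20) and that of Notch1 0.21 (95% interval 0.09 to 0.33), with exact binomial intervals that cover counting error only. The ratios of all UMIs also took in cluster makeup. Basal cells numbered 1684 in the BMT library and 1712 in the BMT + T cells library, and Differentiated cells 493 and 353. The median of the equal-weight differences over the 10 genes was 0.05, and the label and the library cannot be told apart here.

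In donor cells Notch2 was lowest in resident mLCs in each library, among clusters with at least 20 cells. Notch4 was highest in resident mLCs in each library except BMT replicate 2, where Hmox1+ monocytes were higher. Dtx4 and Jag1 were highest in Hmox1+ monocytes or Mrc1+ macrophages in each library, except for Jag1 in BMT + T cells, where MC (7 UMIs) was higher. The highest Jag1 value of BMT replicate 3, in Mrc1+ macrophages, rested on 1 UMI.

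In Mono, Notch2 measured 1.17, 1.38 and 2.36 CP10K in BMT replicates 1 to 3 and 0.929 in BMT + T cells, from 256, 398, 195 and 64 UMIs. In resident mLCs it measured 0.340, 0.487 and 0.337 CP10K in BMT replicates 1 to 3 and 0.383 in BMT + T cells. The 2 clusters did not overlap, since the lowest Mono library was above the highest resident mLC library. Resident mLC minus Mono was -1.61 ± 0.205 (SE), adjusted p = 1.80e-06 (limma, 4 libraries), with a lower value in 4 of 4 libraries.

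The other clusters are given next. Mrc1+ macrophages had 0.732, 0.828 and 2.02 CP10K in BMT replicates 1 to 3 and 0.904 in BMT + T cells, and MC had 0.582 and 0.668 CP10K in BMT replicates 1 and 2 and 0.778 in BMT + T cells. MC lay below Mono in all 3 libraries with at least 20 MC cells, but the difference missed the threshold (-0.77 ± 0.227 (SE), adjusted p = 0.0515). Across alternatives its adjusted p ran from 1.3e-06 (limma on summed UMIs with voom weights) to 0.547. Hmox1+ monocytes had 0.939 and 1.49 CP10K in BMT replicates 1 and 2 and 1.22 in BMT + T cells, ISG monocytes 0.706 and 0.95 CP10K in BMT replicates 1 and 2 and 1.04 in BMT + T cells, and S100a+ monocytes, with enough cells in BMT replicate 2 only, 1.65. Cycling mLCs had 0.640 and 0.590 CP10K in BMT replicates 1 and 2 and 0.479 in BMT + T cells, and migrating mLCs 0.405 and 0.573 CP10K in BMT replicates 1 and 2. Within BMT replicate 2, the library with at least 20 cells in all 9 clusters, the order was S100a+ monocytes, Hmox1+ monocytes, Mono, ISG monocytes, Mrc1+ macrophages, MC, cycling, migrating and resident mLCs. Over the libraries with enough cells, neighbours in that order overlapped, except for S100a+ monocytes, which had this library alone.

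Resident mLCs were also below MC in Notch2 (-0.84 ± 0.227 (SE), adjusted p = 0.0151) and below Mrc1+ macrophages (-1.23 ± 0.205 (SE), adjusted p = 7.41e-05, limma). Leaving out BMT replicate 1 (adjusted p = 0.101), BMT replicate 2 (0.0959) or the BMT + T cells library (0.111) ended the call against MC, while the calls against Mono and Mrc1+ macrophages held under all 12 alternatives each. In MC, Notch2 was compared between cells with and without a UMI of Epcam, which encodes an adhesion molecule of Langerhans cells. BMT replicate 1 had 0.486 CP10K in 283 cells with an Epcam UMI and 0.826 in 111 without, and BMT replicate 2 had 0.659 in 1265 and 0.700 in 345. Cells with Epcam were lower in both libraries, by a mean of 0.37 on the log2 scale (SD 0.414, exact two-sided sign-flip permutation p = 0.5, the smallest that 2 libraries allow). Cells with an Epcam UMI were also deeper, with medians of 17874 against 11963 and 10354 against 7595 UMIs.

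**Figure D3:**
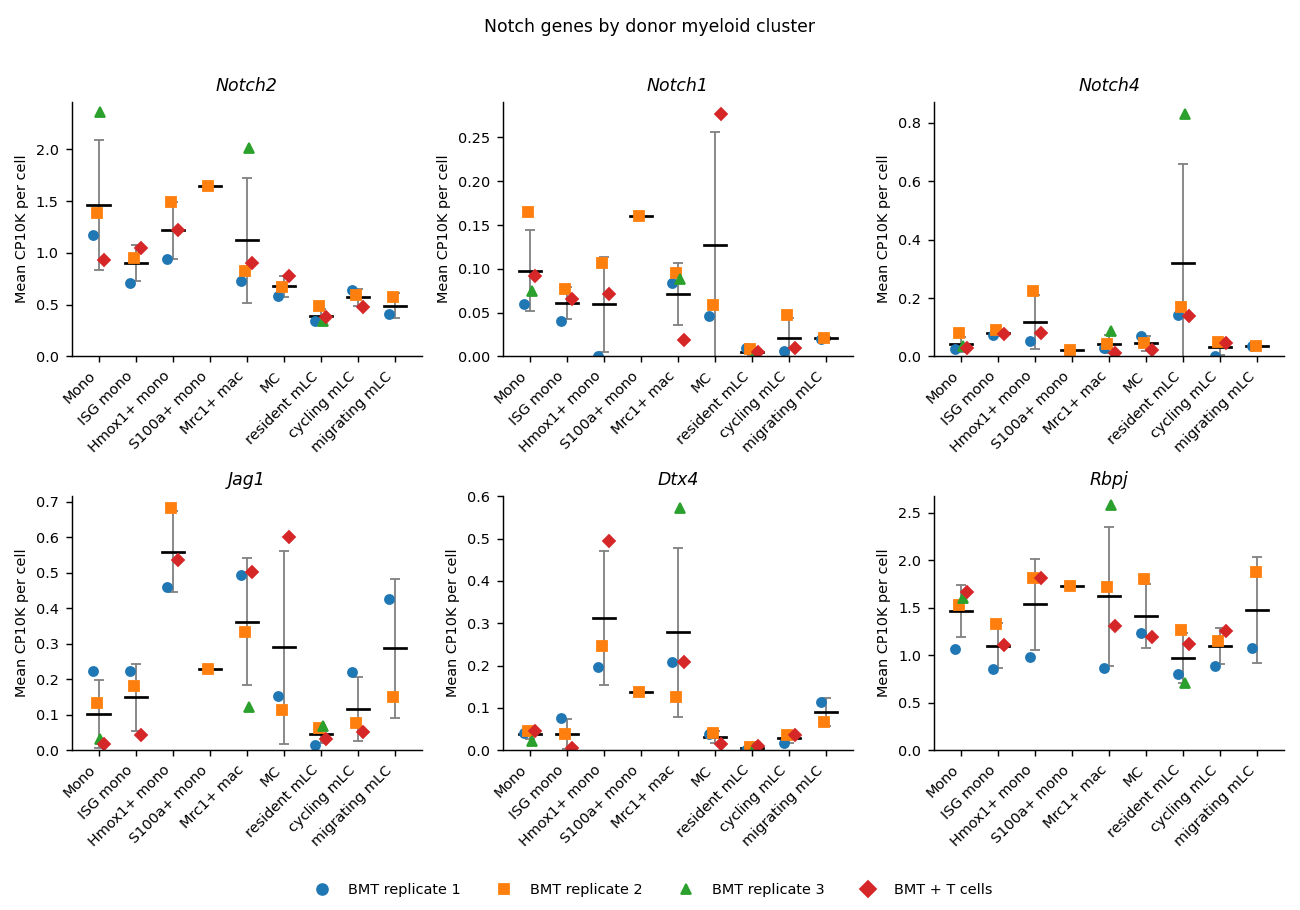
Mean CP10K per cell (vertical axes, linear) of Notch2, Notch1, Notch4, Jag1, Dtx4 and Rbpj in the 9 donor clusters, for each library with at least 20 cells, with black lines for the mean and grey bars for the SD over libraries. Notch2 falls from 1.46 ± 0.626 CP10K (SD, n = 4) in Mono to 0.387 ± 0.0699 CP10K (SD, n = 4) in resident mLCs, where the mean of Notch4 is highest.

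Notch4 measured 0.142, 0.170 and 0.830 CP10K in BMT replicates 1 to 3 and 0.139 in BMT + T cells in resident mLCs, from 14, 151, 32 and 70 UMIs. In Mono it measured 0.0242, 0.0791 and 0.0360 CP10K in BMT replicates 1 to 3 and 0.0284 in BMT + T cells, from 8, 20, 4 and 3 UMIs. The clusters did not overlap, and BMT replicate 3 stood above the other resident mLC libraries. Resident mLC minus Mono was 1.31 ± 0.260 (SE), adjusted p = 4.92e-04 (limma), and without BMT replicate 3 it was 0.82 (adjusted p = 0.00699). The call held under all 11 alternatives that tested the gene. Resident mLCs were also above Mrc1+ macrophages (1.30 ± 0.260 (SE), adjusted p = 5.42e-04) and MC (1.08 ± 0.288 (SE), adjusted p = 0.0140), although leaving out BMT replicate 1 (adjusted p = 0.0544), BMT replicate 2 (0.143) or the BMT + T cells library (0.110) ended the call against MC. Mrc1+ macrophages held 15, 51 and 7 Notch4 UMIs in BMT replicates 1 to 3 and 2 in BMT + T cells. MC of BMT + T cells held 1. Migrating mLCs had 0.0352 and 0.0368 CP10K in BMT replicates 1 and 2 and were below resident mLCs (-1.20 ± 0.329 (SE), adjusted p = 0.0136), a call lost without either of these libraries (adjusted p = 0.147 and 0.256).

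Notch1 was near its floor in resident mLCs, with 1, 10, 0 and 4 UMIs in the 4 libraries, and measured 0.0604, 0.165 and 0.0750 CP10K in BMT replicates 1 to 3 and 0.0918 in BMT + T cells in Mono. Resident mLC minus Mono was -0.88 ± 0.247 (SE), adjusted p = 0.00972 (limma), lost without BMT replicate 2 (adjusted p = 0.126). Against MC it was -0.96 ± 0.273 (SE), adjusted p = 0.0222, lost without BMT replicate 1 (adjusted p = 0.0582), BMT replicate 2 (0.0679) or BMT + T cells (-0.48, adjusted p = 0.275), and against Mrc1+ macrophages -0.67 ± 0.247 (SE), adjusted p = 0.0487, lost without BMT replicate 1 (0.164), 2 (0.202) or 3 (0.164). Notch3 gave 2 UMIs in all 11899 donor cells, both in Mrc1+ macrophages of BMT replicate 2, and was not tested.

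Jag1 measured 0.492, 0.334 and 0.123 CP10K in BMT replicates 1 to 3 and 0.502 in BMT + T cells in Mrc1+ macrophages and 0.459 and 0.683 CP10K in BMT replicates 1 and 2 and 0.535 in BMT + T cells in Hmox1+ monocytes. In Mono it measured 0.223, 0.133 and 0.0315 CP10K in BMT replicates 1 to 3 and 0.0182 in BMT + T cells, and in resident mLCs 0.0158, 0.0623 and 0.0690 CP10K in BMT replicates 1 to 3 and 0.0318 in BMT + T cells. Mrc1+ macrophages were above resident mLCs in 4 of 4 libraries, and resident mLC minus Mrc1+ macrophages was -1.59 ± 0.381 (SE), adjusted p = 0.00296 (limma). In BMT replicate 3 the values rested on 1 UMI in Mrc1+ macrophages and 2 UMIs in resident mLCs, so the direction in that library is uncertain. Mrc1+ macrophages minus Mono missed the threshold (1.22 ± 0.381 (SE), adjusted p = 0.0645), with adjusted p of 0.00141 to 0.237 across alternatives. Jag1 also differed between libraries in migrating mLCs (0.426 and 0.150 CP10K in BMT replicates 1 and 2), and their difference from resident mLCs did not pass (1.15 ± 0.483 (SE), adjusted p = 0.113).

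Jag2 was low in donor cells, at 291 UMIs in all, and passed in no comparison. Keratinocyte markers (Krt5, Krt14, Krt10 and Dsp, the 4 of 6 on the list that the donor table holds) summed to 0.128 to 2.39 CP10K over the donor clusters, against 268 to 635 for 6 of 6 in the keratinocyte clusters. Mrc1+ macrophages of the BMT + T cells library had the highest sum among donor clusters. The part of these transcripts in donor Jag1 and Jag2 was not tested.

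Dtx4, the Deltex gene of the set, measured 0.208, 0.127 and 0.573 CP10K in BMT replicates 1 to 3 and 0.208 in BMT + T cells in Mrc1+ macrophages. In Mono it measured 0.0402, 0.0465 and 0.0209 CP10K in BMT replicates 1 to 3 and 0.0461 in BMT + T cells, and in resident mLCs 0, 0.00754 and 0.00602 CP10K in BMT replicates 1 to 3 and 0.00926 in BMT + T cells. Mrc1+ macrophages lay above both in all 4 libraries, with no overlap, and the value of BMT replicate 3 rested on 5 UMIs. Mrc1+ macrophages minus Mono was 1.33 ± 0.254 (SE), adjusted p = 0.00219 (limma), a call lost with only these clusters in the fit (adjusted p = 0.128), and resident mLC minus Mrc1+ macrophages was -1.71 ± 0.254 (SE), adjusted p = 1.53e-05. Hmox1+ monocytes had 0.197 and 0.247 CP10K in BMT replicates 1 and 2 and 0.494 in BMT + T cells. Migrating mLCs exceeded resident mLCs by 0.95 ± 0.321 (SE), adjusted p = 0.0456, with no call once BMT replicate 1 (adjusted p = 0.544) or BMT replicate 2 (0.269) was left out.

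Hes1 gave 374 UMIs in all donor cells. Resident mLCs held 1, 9, 0 and 3 of them in the 4 libraries. In Mrc1+ macrophages it measured 0.0904, 0.0611 and 1.01 CP10K in BMT replicates 1 to 3 and 0.0881 in BMT + T cells. The value of BMT replicate 3 rested on 5 UMIs in 45 cells. Resident mLC minus Mrc1+ macrophages was -1.42 ± 0.347 (SE), adjusted p = 0.00361 (limma), and without BMT replicate 3 it was -0.73 with an adjusted p of 0.0703. Rbpj was found in every cluster, at 1.07, 1.53 and 1.60 CP10K in BMT replicates 1 to 3 and 1.66 in BMT + T cells in Mono and 0.801, 1.26 and 0.704 CP10K in BMT replicates 1 to 3 and 1.11 in BMT + T cells in resident mLCs. It was lower in resident mLCs in 4 of 4 libraries (-0.56 ± 0.192 (SE), adjusted p = 0.0313, limma), a call lost without any 1 of the libraries (adjusted p = 0.068 to 0.127). Against Mrc1+ macrophages it was -0.62 ± 0.192 (SE), adjusted p = 0.0196, and it was not called without BMT replicate 2 (adjusted p = 0.110) or BMT replicate 3 (-0.24, adjusted p = 0.295). This call held under 6 of 12 alternatives. It was also lost with means of natural log values, summed UMIs with voom weights, at least 50 cells and only these clusters in the fit.

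**Figure D4:**
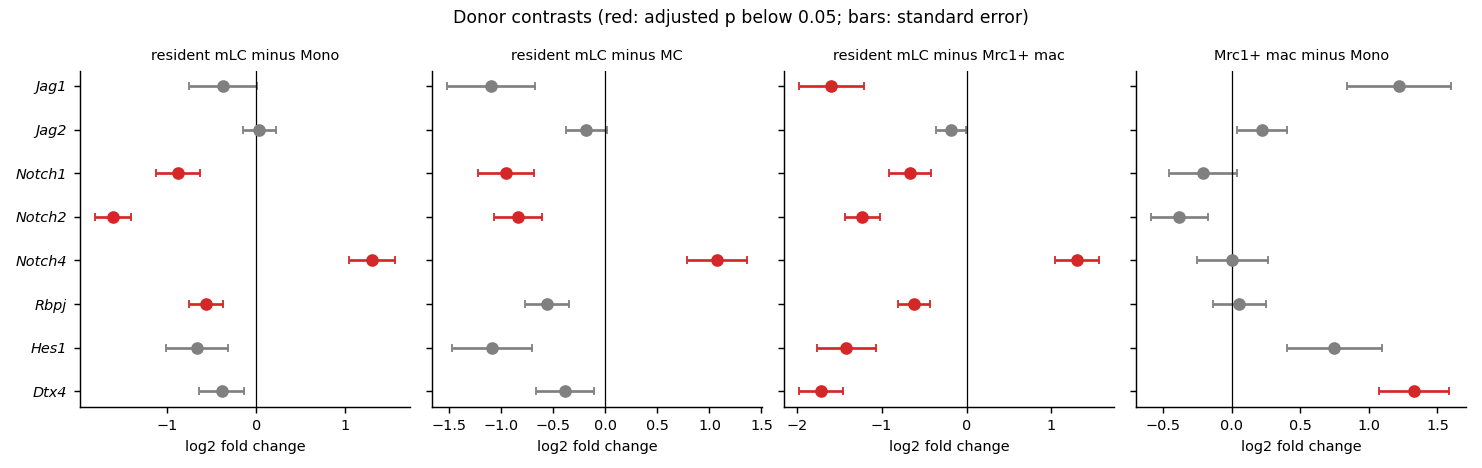
Log2 fold changes (horizontal axes, log2 of CP10K + 0.1) of the 8 genes tested in 4 donor comparisons, with bars for the standard error and red for an adjusted p below 0.05 in limma. Notch2 is to the left of 0 and Notch4 to the right in all 3 comparisons of resident mLCs.

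Of the 9 genes in the donor table, 8 passed the filter on low values. In resident mLC minus Mono, 4 of 8 were called (1 higher, 3 lower), where 26.9% of 10790 genes were called. In resident mLC minus Mrc1+ macrophages, 7 of 8 were called (1 higher, 6 lower), where 25.3% of all genes were called, and in resident mLC minus MC 3 of 8 (12.1%). Mrc1+ macrophages minus Mono called 1 of 8 (5.25%) and migrating minus resident mLCs 2 of 8 (15.6%). MC minus Mono called 0 of 8 (4.75%) and ISG monocytes minus Mono 0 of 8 (1.63%) with limma. In these 2 comparisons 1 and 0 of the 8 had an unadjusted p under 0.05, and limma with voom weights on summed UMIs called 3 in each. The median log2 fold change of the 8 genes was -0.47 against Mono, -0.95 against Mrc1+ macrophages and -0.70 against MC, beside 0.13, 0.11 and 0.12 over all genes. With the pseudocount of 0.1 no gene of the set passed an absolute log2 fold change of 2, whereas with 0.01 several called genes did, such as Dtx4 against Mrc1+ macrophages (-4.02) and Notch4 against Mono (2.33). Resident mLCs held 0, 8 and 1 Dtx4 UMIs in BMT replicates 1 to 3 and 5 in BMT + T cells. The size of the Dtx4 change therefore depends on the pseudocount.

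Of the other pathway genes, 37 were tested in donor cells. In resident mLC minus Mono, 6 were higher and 8 lower (14 of 37 called, where 26.9% of all genes were called). Ccnd1, a cyclin (2.30), Myc (1.08) and Dtx3 (0.79) were the highest, and the ubiquitin ligase Itch (-1.66), Lfng (-1.37) and the protease Furin (-1.17), which cleaves Notch receptors during maturation, the lowest. Against Mrc1+ macrophages 3 were higher (Ccnd1 2.04, the corepressor Ncor1 0.83, Hdac1 0.77) and 7 lower, led by Itch (-1.60), Adam17 (-1.17) and Lfng (-1.08). Against MC, Ncor1 was higher (0.71), and Furin (-1.38), Lfng (-1.11) and Adam17 (-0.67) were lower. The calls were 10 of 37 against Mrc1+ macrophages and 4 of 37 against MC, where 25.3% and 12.1% of all genes were called.

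In migrating minus resident mLCs, 4 were higher and 3 lower, with Poglut1 (2.19), which adds O-glucose to Notch receptors, Lfng (1.69) and Furin (1.09) above and the coactivators Maml3 (-1.77) and Ep300 (-0.66) and Ncor1 (-0.65) below. ISG monocytes minus Mono called Ccnd1 alone (1.52), and MC minus Mono and Mrc1+ macrophages minus Mono called none of the 37. Over all genes 15.6% were called in migrating minus resident mLCs, where 7 of the 37 were called. The shares over all genes were 1.63% in ISG monocytes, 4.75% in MC and 5.25% in Mrc1+ macrophages, each minus Mono. The genes whose levels ran closest to Notch2 over 27 cluster-by-library means were Mapkapk2, Fcgr4, Gm48942, Lpxn and Metrnl (Pearson r 0.889 to 0.864), given as a description.

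Latent time, a fraction from 0 to 1 that the authors derived from RNA velocity, was used to order donor cells. In BMT replicate 2, the library with the most cells, Notch2 measured 0.879 CP10K below a latent time of 0.2, 0.878 from 0.2 to 0.4, 0.566 from 0.4 to 0.6, 0.545 from 0.6 to 0.8 and 3.73 above 0.8. Notch4 measured 0.0687, 0.0486, 0.109 and 0.150 CP10K in the first 4 of these bins, and 0 in the last. The last bin held 77 cells. Median latent time was 0.170 in ISG monocytes, 0.218 in MC, 0.246 in Mono and 0.539 in resident mLCs, so the order did not start at Mono. Between the first and the fourth bin Notch2 was also lower in BMT + T cells (0.849 and 0.555 CP10K), but higher in BMT replicate 1 (0.712 and 0.820) and in BMT replicate 3 (1.48 and 1.54). These bins held 1217 Notch2 UMIs in 1323 cells and 30 in 180 cells in BMT replicate 1, and the first bin of BMT replicate 3 held 21 cells. Notch4 was higher in the fourth bin than in the first in all 4 libraries, but on few UMIs outside BMT replicate 2. In BMT replicate 1 the fourth bin held 5 Notch4 UMIs in 180 cells, against 102 in 1323 cells of the first. The first bin held 3 Notch4 UMIs in BMT replicate 3 and 3 in BMT + T cells. Both courses are a description.

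The donor libraries of the 2 labels were compared over Mono, Mrc1+ macrophages and resident mLCs, each given the same weight, since these clusters held 20 or more cells in every library. On the log2(CP10K + 0.1) scale Notch2 was -0.37, -0.10 and 0.40 in BMT replicates 1 to 3 and -0.33 in BMT + T cells, inside the range of the BMT libraries. The difference was -0.31 ± 0.336 (SE), adjusted p = 0.933 (limma, the lone library assumed to vary like the other 3). With limma 0 of 8 genes were called, as were 0% of 10803 genes (597 at an unadjusted p under 0.05). Leaving out BMT replicate 3 gave 585 calls among 10702 genes. With all libraries, 0 of the 8 had an unadjusted p under 0.05. The differences ran from -0.44 for Notch4 to 0.10 for Rbpj. Donor libraries of a label may also differ in sorting experiment, which cannot be told apart from the label.

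Host CD11b+MHCII+ cells came as 1 library in 7 numbered clusters, so values are given without a test. Clusters 1 to 4 (276, 170, 161 and 90 cells) held Langerhans cell markers at 10.0 to 48.3 CP10K in sum. Cluster 5 (43 cells) was keratinocyte-like, with Krt5 and Krt14 as its leading genes and a keratinocyte marker sum of 393 CP10K, and cluster 6 (23 cells) was T cell-like, led by Cd3g. Cluster 7 (18 cells) was left unnamed, and its leading genes included Gdpd2, Maf, Nfib, Trp63, Mki67, Itga6 and Col17a1.

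Notch4 measured 0.316, 0.113, 0.213 and 0.0399 CP10K in clusters 1 to 4, from 46, 17, 22 and 2 UMIs. Notch2 measured 0.155, 0.139, 0.174 and 0.135 CP10K there, within counting error of one another. Jag1 was highest among these 4 in cluster 4 (0.795 CP10K, against 0.0379 to 0.107), whose leading genes include Ccl22 and Fscn1, markers of mature dendritic cells. Rbpj measured 1.23, 1.69, 0.972 and 1.89 CP10K.

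The keratinocyte-like cluster 5 had 1.14 CP10K of Jag1, 1.31 of Jag2, 0.201 of Dll1, 1.09 of Notch1 and 0.919 of Hes1, at a median depth of 35812 UMIs. The 26 Dll1 UMIs of this cluster made up all but 1 of those in the host library. A median of 14.0% of UMIs were mitochondrial in host cells (208 of 781 cells above 20%), against 1.39 to 2.02% in the donor libraries, and Krt10 was at 14.5 CP10K in cluster 2. Host and donor tables were normalised separately, so no fold between them is given.

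**Figure D5:**
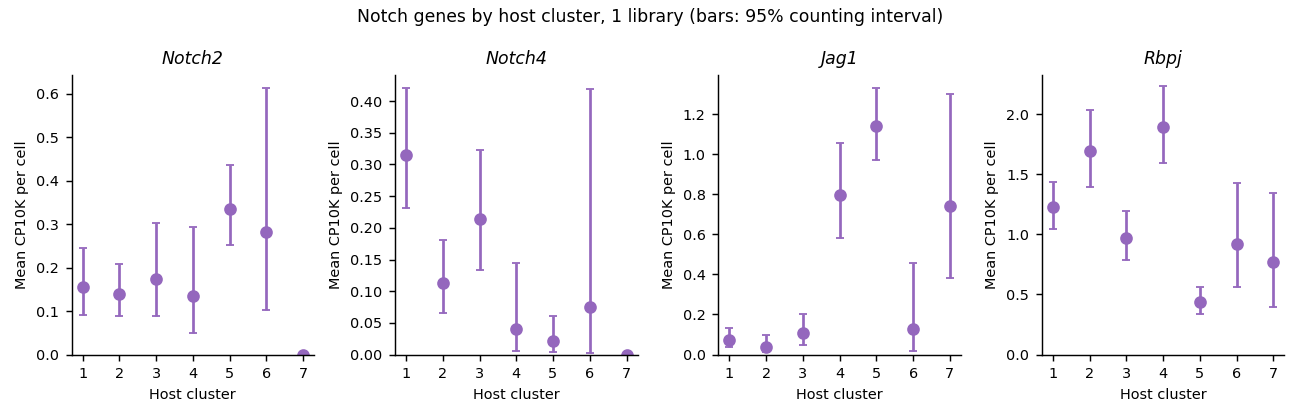
Mean CP10K per cell (vertical axes, linear) of Notch2, Notch4, Jag1 and Rbpj in the 7 clusters of the 1 host library, with bars for the exact 95% Poisson interval of the UMIs scaled to the mean (none is drawn at 0). Notch4 is highest in clusters 1 and 3 and Jag1 in clusters 4, 5 and 7, of which cluster 5 is keratinocyte-like and cluster 7 (18 cells) unnamed.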

How the data were processed

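Single-cell 5′ libraries (10x Genomics) were quantified by the authors with kallisto and bustools and analysed in Seurat, with GRCm38 named in the submitters' processing notes, and versions not given in the sources used here. Expression was deposited by the authors as the natural log of 1 + CP10K, and multiplying back by each cell's total gave whole UMIs for 100% of nonzero values (tolerance 0.001). Clusters, the mitochondrial percent of each cell and latent time, a fraction from 0 to 1, were used as deposited by the authors, who state that cells with under 500 genes or over 20% mitochondrial UMIs and doublets were removed, although such cells remain in the tables. Libraries shared 0 to 7 cell barcodes per pair, and no cell was removed here.

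CP10K was averaged per library and cluster with at least 20 cells. This left out MC, ISG, Hmox1+, cycling and migrating cells of BMT replicate 3, migrating cells of BMT + T cells, and S100a+ monocytes of all libraries but BMT replicate 2. The test took genes whose mean over these units reached 0.01 CP10K and was run with limma 3.58.1 (R 4.3.3, statmod 1.5.0, trend and robust options) on log2(CP10K + 0.1) over all clusters of a table, with library as a block, and called at a Benjamini-Hochberg adjusted p under 0.05 over all genes tested. Means and intervals were computed in Python 3.11.15 with pandas 2.3.3, SciPy 1.17.1 and NumPy 2.4.6, and figures were drawn with matplotlib 3.10.9. The fit was tested on simulated data in which only genes of at least 0.1 CP10K were changed, so that test does not bear on calls of lower genes. The settings changed were the filter, the pseudocount, the averaging, the minimum of cells, the clusters in the fit and each library in turn.

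The study describes independent sorting experiments on pooled mice for donor cells, but the labels do not tie each library to one. With library as a block, limma p-values between clusters measure only how cluster differences varied over these libraries, pooled over the clusters of a table. Those between donor labels measure the spread between the BMT libraries. Either spread may be technical. Intervals cover counting error only. The 10 genes and the lists were chosen with earlier results of these data known. Of the pathway list, the 3 called genes with the largest absolute change in each direction were named in each comparison, except for an item that is not reported here, and the 5 genes with the highest Pearson r were named for likeness.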

Additional observations from a re-analysis of the deposited data

Results flagged for a closer look

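For 15 differences between clusters, the BMT + T cells library went one way and each BMT library the other. All tested genes of the set and all comparisons were searched for this. The share of such splits over all genes was not computed, so the count is not read as a trait of these genes. With 1 keratinocyte library on each side, a small difference can easily take opposite signs. None of these contrasts between labels was tested, and each label has 1 such library in keratinocytes. In donor cells, the difference within the BMT + T cells library on the log2(CP10K + 0.1) scale was 2.57 for Jag1 and 0.97 for Notch1 in MC minus Mono, where its MC cells numbered 30 and held 7 Jag1 and 3 Notch1 UMIs. In the same comparison it was -0.45 for Rbpj and -0.039 for Jag2. Jag2 also gave -0.11 in ISG monocytes minus Mono, -0.19 in Mrc1+ macrophages minus Mono and 0.39 in resident mLC minus MC, and Notch2 gave 0.15 in ISG monocytes minus Mono. The Jag2 values of the BMT + T cells library rested on 1 UMI each in Mono, ISG monocytes, Mrc1+ macrophages and MC. Its resident mLCs held 13 Jag2 UMIs.

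In keratinocytes, Notch1 gave -0.014 in Differentiated minus Basal, -0.058 in Follicular minus Basal and -0.044 in Follicular minus Differentiated in the BMT + T cells library. Rbpj gave 0.17 in Differentiated minus Basal, 0.14 in Follicular minus Basal, 0.80 in Follicular minus KC_Five and 0.088 in Follicular minus KC_Four.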

How the results depend on the processing

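Calls were compared under the other settings with limma at an adjusted p under 0.05. Of the 8 donor genes, resident mLC minus Mono called 4, against 2 with a filter at 0.1 CP10K (which tests fewer genes), 7 with summed UMIs and voom weights, and 2 to 3 when 1 library was left out. MC minus Mono called 0, against 1 with that filter, 1 with means of natural log values, 1 with at least 50 cells, 3 with voom and 0 to 1 when 1 library was left out. ISG monocytes minus Mono called 0 against 3 with voom. Mrc1+ macrophages minus Mono called 1, against 2 with that filter, 3 with natural log values, 3 with voom, 2 with at least 50 cells and 0 with only these clusters. Resident mLC minus MC called 3, against 1 with that filter, 1 with a pseudocount of 1, 1 with at least 50 cells, 8 with voom and 0 to 4 when 1 library was left out. It called 0 without BMT replicate 1, BMT replicate 2 or BMT + T cells. Resident mLC minus Mrc1+ macrophages called 7, against 4 with that filter and 4 to 7 when 1 library was left out, with 4 without BMT replicate 3. Migrating minus resident mLC called 2, against 1 with that filter, 1 with no filter, 0 with a pseudocount of 1, 5 with voom, 4 with at least 50 cells and 0 to 2 when 1 library was left out, with 0 without BMT replicate 1 or 2. Beyond the filter and the omitted libraries, the cause was not tested.

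Notch1 in MC minus Mono, not called, changed sign, at -0.025 with a pseudocount of 0.01, -0.0029 with natural log values, -1.12 with voom, -0.45 with at least 50 cells, and -0.40 to 0.45 when 1 library was left out. Keratinocyte counts stayed within 1.5 times of their main values under the settings run. Between donor labels 0 of the members were called under each setting, but over all genes 0 calls became 585 without BMT replicate 3. Over all genes, calls under the other settings ran from 21 to 1178 in ISG monocytes minus Mono (176 as reported), 118 to 2167 in MC minus Mono (513), 87 to 1788 in Mrc1+ macrophages minus Mono (566), 406 to 4322 in migrating minus resident mLC (1679), 474 to 3956 in resident mLC minus MC (1301), 1439 to 5052 in resident mLC minus Mono (2903) and 1438 to 5254 in resident mLC minus Mrc1+ macrophages (2729), and in Differentiated minus Basal from 1580 to 4967 (2590). Each donor minimum came without BMT replicate 2, except with only the compared clusters in the Mrc1+ macrophage comparisons, and each maximum with voom. The median difference between donor labels ran from -0.49 to -0.03. Of the differences of single genes, 607 kept their direction and side of the threshold under another setting, 52 lost a call, 46 gained one, 32 untested values moved and 5 turned sign. Low UMI counts limit Notch1, Notch4, Hes1, Dtx4 and Jag2 in donor cells, Jag1 in donor cells of BMT replicate 3, and Notch3, Notch4 and Dtx4 in keratinocytes. No paired analysis was possible because the groups compared share fewer than 2 replicate numbers, and library was already a block between clusters.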
